A study of Arabidopsis thaliana with 6 samples.

Results

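The 9 genes PYR1, PYL1, PYL2, PYL4, PYL5, PYL6, PYL7, PYL8 and PYL9 encode receptors of the plant hormone abscisic acid (ABA). They were listed by locus number and not by a cutoff on their values, although earlier results of these data were known when they were chosen. They are 9 of the 33602 genes in the deposited tables. Their loci are AT4G17870 (PYR1), AT5G46790 (PYL1), AT2G26040 (PYL2), AT2G38310 (PYL4), AT5G05440 (PYL5), AT2G40330 (PYL6), AT4G01026 (PYL7), AT5G53160 (PYL8) and AT1G01360 (PYL9), scattered over chromosomes 1, 2, 4 and 5. RNA was sequenced from whole Arabidopsis thaliana seedlings of the acinus-2 pnn genotype (3 libraries, labelled 6, 7 and 12) and of wild type (WT, 3 libraries, labelled 2, 4 and 5), all of ecotype Col-0, grown in continuous light and labelled as 12 days old, while the study's text gives a later age for the seedlings sequenced. The mutant carries T-DNA insertions in AtACINUS and AtPININ, and each gene is represented by 1 insertion allele. The study's text places their products in similar but separate complexes, ASAP and PSAP. It gives both genes a part in pre-mRNA splicing, and AtACINUS also a part in transcription. The labels name no ABA treatment.

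ABA is the hormone of drought, salt stress and seed dormancy. A PYR/PYL receptor that has bound ABA docks onto a clade A type 2C protein phosphatase (PP2C) and blocks it, which releases SnRK2 kinases to phosphorylate transcription factors of the ABF and ABI5 group and ion channels of guard cells. The receptor family falls into subfamilies by sequence: PYR1, PYL1 and PYL2 act mainly as dimers that come apart on ABA binding, whereas PYL4, PYL5 and PYL6 and the group of PYL7, PYL8 and PYL9 include monomeric receptors that respond to low ABA. The receptors overlap in function, and several must be lost together before a plant becomes strongly insensitive to ABA.

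In the coding sequence, the closest pair was PYL7 and PYL9, with 81.4% identity and a longest shared run of 32 bases, followed by PYR1 and PYL1 with 75.2%. In the gene tables, 6 of the 9 receptors have a single exon. Among them is PYL1, which has 2 exons in the reference annotation, so that its splicing was not tested. Only PYL7, PYL8 and PYL9 have introns in the gene tables. The second introns of these genes are shown because they sit at the same place in each gene, directly after a second exon of 216 bases in PYL7 and PYL9 and the corresponding stretch of PYL8, and because their splicing was measured in both genotypes. The sequences are from the TAIR10.1 reference, on the plus strand, with the first 2 and the last 2 bases of each intron in capitals.
PYL7 intron 2, chr4:447770-447839: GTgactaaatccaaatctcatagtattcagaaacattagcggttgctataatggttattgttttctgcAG
PYL8 intron 2, chr5:21561661-21561740: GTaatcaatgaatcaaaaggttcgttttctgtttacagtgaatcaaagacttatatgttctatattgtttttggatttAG
PYL9 intron 2, chr1:142640-142710: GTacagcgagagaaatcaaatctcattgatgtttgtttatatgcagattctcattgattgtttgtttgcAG
All 3 have the canonical splice site bases, and each follows a complete codon. An RNA that kept the intron would reach a stop codon after 134 of 211 codons in PYL7 and after 138 of 187 codons in PYL9, in both cases inside the intron. In PYL8 the reading frame would run through the intron and stop after 157 codons, against 188 codons in the spliced RNA.

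The expression tables give reads scaled to exon length and to all mapped reads of the library (RPKM), which allow levels of different genes to be set side by side. All 9 receptor RNAs were detected in all 6 libraries (the plot of RPKM by gene). In acinus-2 pnn seedlings the mean level ran between 1.79 RPKM for PYL2 and 41.3 RPKM for PYL4, and in WT seedlings between 3.30 RPKM for PYL2 and 39.9 RPKM for PYL4. PYL4, PYR1 and PYL8 were the 3 highest genes in both genotypes and together held 63.8% ± 0.970 of the summed receptor RPKM in the mutant and 65.6% ± 0.329 in WT (SD, n = 3 each). PYL4 was above the next gene in every library of both genotypes, although its range overlapped that of PYL8 in WT. PYR1 and PYL8 overlapped in level in the mutant and in WT, so that their order is not fixed by these data. PYL7 and PYL6 overlapped in the mutant, and PYL6 and PYL9 overlapped in WT. PYL5 stood above PYL1 in all 3 mutant libraries and below PYL1 in all 3 WT libraries, and PYL7 stood above PYL9 in all 3 mutant libraries and below it in all 3 WT libraries.

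**Figure D1:**
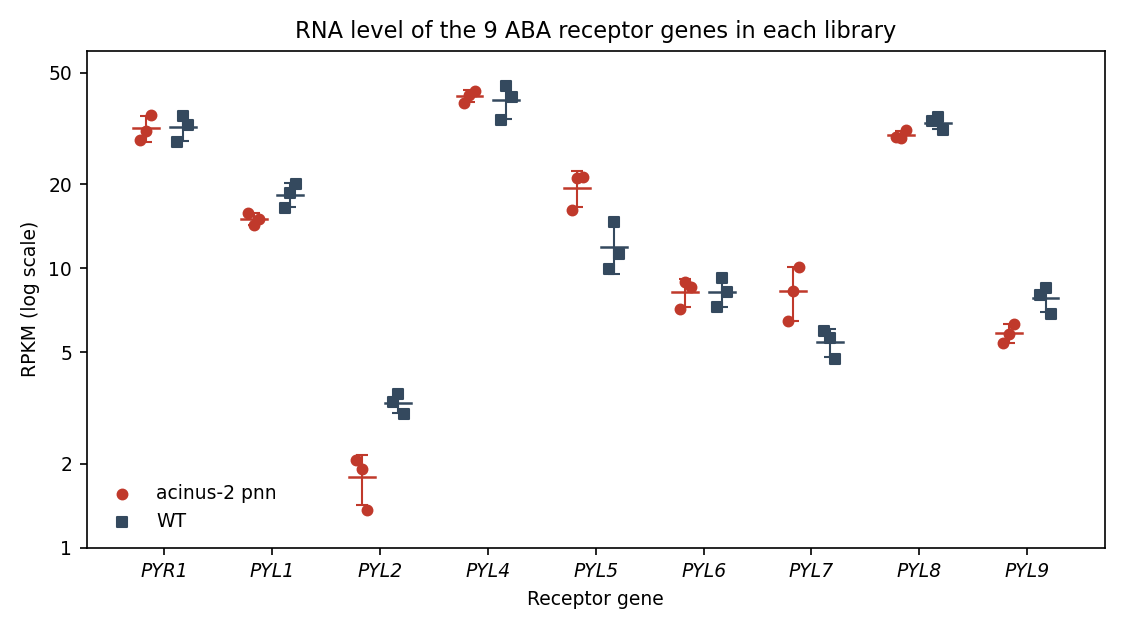
RNA level of each receptor gene in RPKM on a log axis, with acinus-2 pnn (red circles) left of WT (dark squares). Points are libraries, horizontal lines means and bars SD (n = 3 each). PYL5 and PYL7 lie higher in the mutant without overlap, PYL1, PYL2, PYL8 and PYL9 lie lower.

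Genes were compared between the genotypes with edgeR's quasi-likelihood test on rounded expected counts over 20962 genes, with Benjamini-Hochberg adjustment, and a gene passed at an adjusted p under 0.02. The genotypes differed widely: 37.4% of all tested genes passed, 18.0% as higher and 19.4% as lower in the mutant, and 9.17% also differed by more than 2-fold (4.29% higher and 4.88% lower). Of the 9 receptors, 2 rose (PYL5 and PYL7), 3 fell (PYL1, PYL2 and PYL9), 4 did not pass, and 0 differed by more than 2-fold with an adjusted p under 0.02, while 6 had an unadjusted p under 0.05. The count of 0 became 1 without mutant library 6, where PYL2 had a log2 fold change of -1.03 (edgeR adjusted p = 0.00615). Without overlap between the genotypes, 2 receptors lay higher and 4 lower in the mutant, as did 27.0% and 28.2% of all genes. The 5 receptors that passed, 55.6% of 9, stand against 37.4% over all genes, and with 9 members this is not read as a difference. The median log2 fold change was -0.02 over the receptors and 0.0015 over all genes tested. The labels do not say whether the 3 libraries of a genotype came from separate cultures, although the study's text calls them biological replicates. In this bulk RNA, fewer cells of a type and less RNA per cell cannot be told apart.

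PYL5, a receptor of the monomeric PYL4 to PYL6 group, showed the clearest rise. Its level was 16.1, 21.0 and 21.1 RPKM in acinus-2 pnn libraries 6, 7 and 12, against 9.94, 14.6 and 11.2 RPKM in WT libraries 2, 4 and 5. The lowest mutant library was above the highest WT library. The log2 fold change of normalized counts was 0.69 (SE 0.12, adjusted p = 0.000447 by edgeR), a 1.62-fold higher level. Its closest relatives in the group did not follow. PYL4 had 39.2, 41.6 and 43.2 RPKM in the mutant, against 33.8, 44.8 and 41.0 RPKM in WT, and the genotypes overlapped. The log2 fold change of PYL4 was 0.04 (SE 0.08, edgeR adjusted p = 0.678). PYL6 had 7.16, 8.92 and 8.55 RPKM in the mutant, against 7.27, 9.23 and 8.20 RPKM in WT, again with overlap. Its log2 fold change was -0.02 (SE 0.10, edgeR adjusted p = 0.905), with an approximate 95% interval of the fold between 0.859 and 1.14.

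PYL7 rose as well. Its level was 6.46, 8.29 and 10.1 RPKM in the mutant, against 5.97, 5.61 and 4.73 RPKM in WT. The 3 mutant libraries lay above the 3 WT libraries, with the smallest gap between mutant library 6 and WT library 2. The log2 fold change of normalized counts was 0.61 (SE 0.14, edgeR adjusted p = 0.00299), a 1.52-fold higher level. PYL7 was the only receptor with reads that the tables also count for other genes, between 37.8% and 46.7% of its reads per library, and the other 8 had 0%. On the reference, PYL7 lies on the plus strand of chromosome 4 (446978 to 448511) and overlaps 2 genes of the minus strand, 571 bases of the protein-coding AT4G01030 and 269 bases of the non-coding AT4G03845. No source states that the counting used the strand, so that reads of PYL7 and of these genes cannot be told apart where they overlap. Between 80.2% and 85.5% of the reads on exon 3 of PYL7 were shared, and 0% of those on exons 1 and 2.

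The unshared reads of PYL7 numbered 122, 152 and 206 in mutant libraries 6, 7 and 12, against 100, 106 and 101 in WT libraries 2, 4 and 5. With all shared reads left out of the table, its log2 fold change was 0.68 (SE 0.16, edgeR adjusted p = 0.00276). By exon, as unshared reads scaled to the normalized library size (CPM), exon 1 held 3.70, 4.76 and 4.33 CPM in the mutant, against 2.88, 2.14 and 1.90 CPM in WT. On exon 1 the mutant libraries lay above all WT libraries. Exon 2 held 2.38, 4.08 and 4.29 CPM in the mutant, against 3.04, 2.37 and 2.16 CPM in WT. There, and on the unshared part of exon 3, the genotypes overlapped (the plot of unshared reads by exon). The non-coding AT4G03845 spans the end of exon 1, intron 1 and the start of exon 2 (447309 to 447577). Its part in the reads of these exons and of intron 1 was not tested, also where the reads count as unshared.

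**Figure D2:**
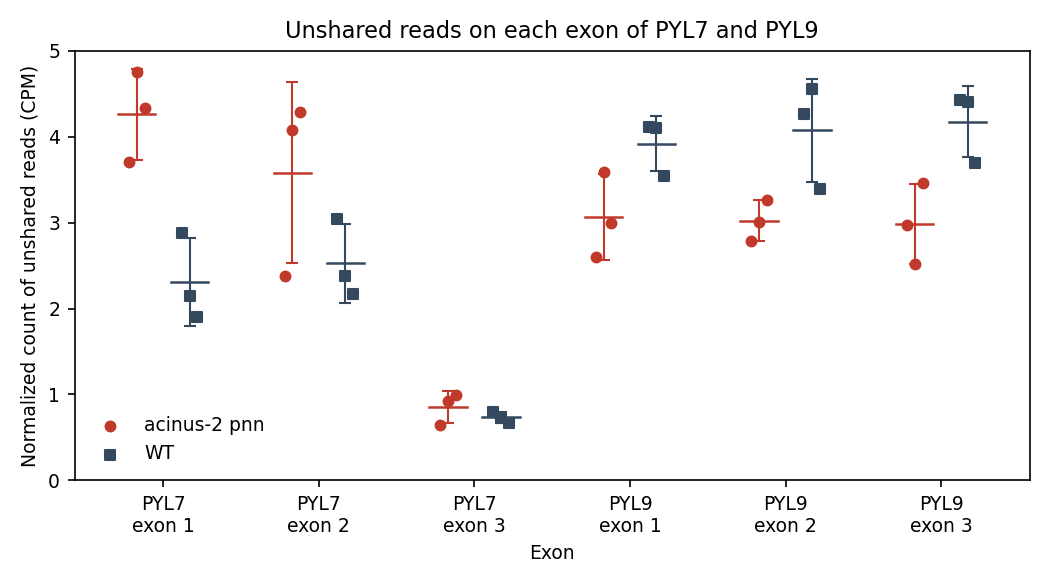
Normalized counts (CPM) of reads that the tables count for PYL7 or PYL9 alone, by exon, with acinus-2 pnn (red circles) left of WT (dark squares). Points are libraries, lines means and bars SD (n = 3 each). The mutant is higher on exon 1 of PYL7 (mean 4.26 CPM, against 2.31 CPM in WT), and lower on exons 2 and 3 of PYL9 without overlap.

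PYL9, the receptor closest to PYL7 in sequence, moved the other way. Its level was 5.41, 5.82 and 6.34 RPKM in the mutant, against 8.01, 8.53 and 6.88 RPKM in WT. All mutant libraries were below all WT libraries. The log2 fold change of normalized counts was -0.42 (SE 0.10, edgeR adjusted p = 0.00464), a level of 0.750 times that of WT. All 3 exons of PYL9 had lower means in the mutant, with ratios of mean CPM of 0.783, 0.742 and 0.715 for exons 1, 2 and 3. The call for PYL9 was lost with DESeq2 (adjusted p = 0.0203) and against a fold change of 1.2, and leaving out mutant library 6 or WT library 4 gave adjusted p = 0.0203 and 0.0207.

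PYL8, the remaining member of this group and a receptor known for its role in roots, had 29.5, 29.2 and 31.1 RPKM in the mutant, against 33.6, 34.8 and 31.2 RPKM in WT. The groups did not overlap, although mutant library 12 and WT library 5 were nearly level. Its log2 fold change of -0.16 (SE 0.05, edgeR adjusted p = 0.0276) did not pass. It passed only with upper-quartile scaling (adjusted p = 0.0114), which also moved the median of all genes to -0.03 on the log2 scale.

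In the dimeric group, PYL2 had the largest log2 fold change of the family in either direction and the fewest reads. Its RNA numbered 32, 28 and 24 reads in mutant libraries 6, 7 and 12, against 44, 62 and 58 reads in WT libraries 2, 4 and 5. Per length and depth this was 2.07, 1.92 and 1.37 RPKM in the mutant, against 3.32, 3.56 and 3.01 RPKM in WT, and the groups did not overlap. The log2 fold change of normalized counts was -0.90 (SE 0.22, edgeR adjusted p = 0.00526). This is a level of 0.537 times that of WT, with an approximate 95% interval between 0.399 and 0.724. The model of PYL2 in the tables is 573 bases long, which equals its coding sequence, whereas those of the other receptors include untranslated parts, so that its RPKM and theirs refer to different parts of the RNA. Without mutant library 12 its log2 fold change was -0.70 and the call was lost (edgeR adjusted p = 0.0255).

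PYL1 had 15.7, 14.3 and 14.9 RPKM in the mutant, against 16.4, 18.6 and 19.97 RPKM in WT. The highest mutant library was just below the lowest WT library. Its log2 fold change was -0.30 (SE 0.09, edgeR adjusted p = 0.0133). This was the least stable of the 5 calls, being lost under 7 of 13 alternatives, among them DESeq2 (adjusted p = 0.0300) and leaving out WT library 5 (edgeR adjusted p = 0.0733). PYR1, the founding member of the family and the closest relative of PYL1, had 28.7, 31.1 and 35.5 RPKM in the mutant, against 28.4, 35.2 and 32.4 RPKM in WT. The genotypes overlapped throughout. Its log2 fold change was -0.02 (SE 0.08, edgeR adjusted p = 0.856), with an approximate 95% interval of the fold between 0.887 and 1.10.

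**Figure D3:**
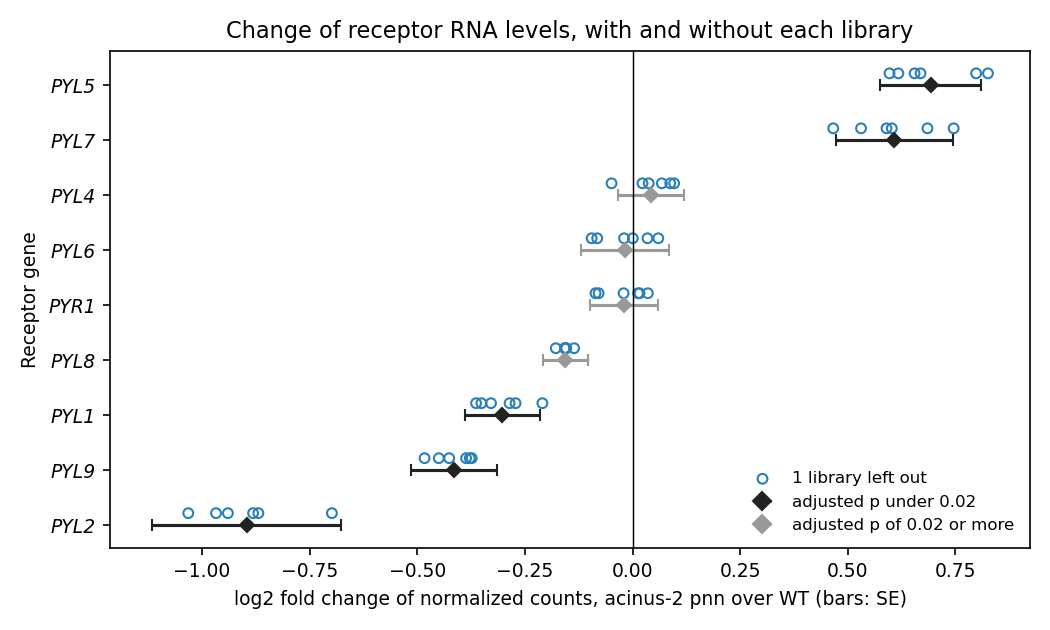
Log2 fold change of normalized counts, acinus-2 pnn over WT, for the 9 receptors, ordered by size. Diamonds with bars are the estimate and its SE from all 6 libraries (black where the adjusted p was under 0.02), and open circles the estimates with 1 library left out. PYL5 (0.69) and PYL7 (0.61) lie to the right, PYL2 (-0.90) farthest to the left.

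Summed over the 9 receptors, the RNA level did not differ beyond the spread of the libraries. The sum was 150.3, 162.0 and 172.2 RPKM in mutant libraries 6, 7 and 12, against 146.7, 174.9 and 158.6 RPKM in WT libraries 2, 4 and 5. Its mean was 161.5 RPKM in the mutant and 160.1 RPKM in WT, a ratio of 1.01 with a propagated SD of 0.112 (n = 3 each). The composition differed more than the sum (the plot of shares by library). The PYL4 to PYL6 group held 41.6%, 44.1% and 42.3% of the sum in the mutant, against 34.8%, 39.2% and 38.1% in WT, without overlap. PYL5 alone held 12.0% ± 1.14 of the sum in the mutant and 7.40% ± 0.840 in WT (SD, n = 3 each). The group of PYR1, PYL1 and PYL2 held 30.9%, 29.2% and 30.1% in the mutant, against 32.8%, 32.8% and 34.9% in WT, also without overlap. The group of PYL7, PYL8 and PYL9 overlapped, with 27.3% ± 0.489 in the mutant and 29.1% ± 2.91 in WT (SD, n = 3 each). Shares of a sum are not independent, and these are given without a test.

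**Figure D4:**
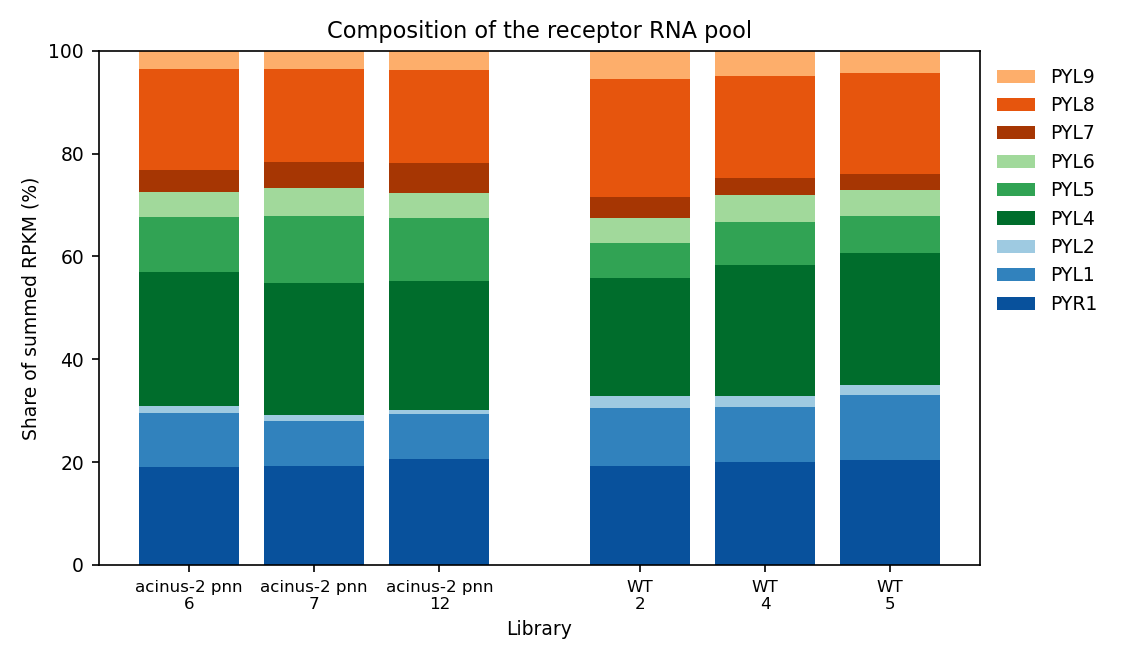
Share of each receptor in the summed RPKM of the 9 genes (%), as stacked bars per library, the 3 acinus-2 pnn libraries left of the 3 WT libraries. Blue shades are PYR1, PYL1 and PYL2, green shades PYL4 to PYL6 and orange shades PYL7 to PYL9. The green part spans 41.6% to 44.1% in the mutant and 34.8% to 39.2% in WT.

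The other 5 PYL genes in the tables hardly contributed. PYL3, PYL11, PYL12 and PYL13 had between 0 and 4 reads per library, and PYL10 had 0 reads in all 6, where a count of 0 allows up to 3 reads per library. None entered the test. Together they amounted to between 0.287 and 0.501 RPKM in the mutant and between 0.349 and 0.409 RPKM in WT.

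Splicing of the receptor RNAs was measured because AtACINUS and AtPININ act in splicing. Intron retention was tested with edgeR as intron reads against reads on the neighbouring exons. Over 25531 introns, 0.917% were called (adjusted p under 0.05, more than 2-fold, and an intron level and percentage above a minimum), 220 with more and 14 with less retention in the mutant. The tables list 5 introns in the receptors, 2 in PYL7, 2 in PYL9 and 1 in PYL8. Of these 4 had enough reads to be tested, and 0 were called, 0 had an unadjusted p under 0.05 by edgeR, and DESeq2 also called 0.

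Intron 2 of PYL7, printed above, held 6, 11 and 5 reads in mutant libraries 6, 7 and 12, against 3, 6 and 4 reads in WT libraries 2, 4 and 5. The log2 fold change of its ratio to the exons was 0.29 (SE 0.56, edgeR adjusted p = 0.907). This ratio includes the reads on exon 3, of which 80.2% to 85.5% were shared, and the ratio to unshared reads was not tested. Intron 1 of PYL7 held 9, 1 and 4 reads in the mutant, against 2, 4 and 2 reads in WT, and mutant library 6 stood apart from the other 5. Its log2 fold change was 0.14 (SE 0.63, edgeR adjusted p = 0.969) and -0.91 without mutant library 6. This intron lies within the span of the non-coding AT4G03845 on the minus strand, and whether its reads come from PYL7 was not tested. Intron 1 of PYL8 held 9, 5 and 8 reads in the mutant, against 6, 8 and 9 reads in WT, among 937 to 1332 reads on its exons per library. Its log2 fold change was 0.15 (SE 0.48, edgeR adjusted p = 0.952). In PYL9, intron 1 held 1, 1 and 3 reads in the mutant, against 4, 1 and 6 reads in WT, with a log2 fold change of -0.63 (SE 0.80, edgeR adjusted p = 0.848). Intron 2 of PYL9 held 0, 1 and 0 reads in the mutant, against 1, 2 and 2 reads in WT, too few for the test. With standard errors between 0.48 and 0.80 on the log2 scale, a 2-fold change in the retention of these introns was not detectable at this depth after adjustment.

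Intron 2 of PYL8 is not in the intron table, because an isoform that keeps it makes it part of an exon there. Its splicing appeared instead as reads that skip 80 bases inside that exon. These reads numbered 124, 106 and 128 in mutant libraries 6, 7 and 12, against 83, 134 and 135 in WT libraries 2, 4 and 5. Reads spliced between exons 1 and 2 of the same gene numbered 96, 92 and 135 in the mutant, against 112, 161 and 144 in WT. The ratio of the first to the second was 1.29, 1.15 and 0.948 in the mutant, against 0.741, 0.832 and 0.938 in WT, so that all mutant libraries lay above all WT libraries, by a narrow margin for mutant library 12 and WT library 5. A two-sided exact permutation test gave p = 0.1, which is the smallest that 3 against 3 libraries allow. This intron was singled out after its values were seen. Tested with edgeR over 1685 such splices inside exons, the log2 fold change of the ratio was 0.41 (SE 0.17), with an unadjusted p of 0.0461 and an adjusted p of 0.595 from the edgeR fit, and 0% of all such splices passed.

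For PYL7 and PYL9, spliced reads were few. Reads spliced between exons 1 and 2 of PYL7 numbered 16, 35 and 32 in the mutant, against 16, 17 and 14 in WT. Those between exons 2 and 3 of PYL7, which cross the printed intron 2, numbered 10, 14 and 27 in the mutant, against 11, 14 and 18 in WT. At the first junction mutant libraries 7 and 12 were above all WT libraries and mutant library 6 was within their range. At the second, mutant library 12 was above and mutant library 6 below all WT libraries. These are raw counts that are not scaled to the size of the library, so that this order is not one of levels. In PYL9, reads between exons 2 and 3 numbered 17, 9 and 25 in the mutant, against 28, 34 and 21 in WT. The ratio of the second junction to the first overlapped between the genotypes in both genes, with exact two-sided permutation p = 0.3 for PYL7 and p = 0.7 for PYL9, where 0.1 is the smallest possible. Adjusted over the 3 ratios, the exact p was 0.3 for PYL8, 0.45 for PYL7 and 0.7 for PYL9. Of 828 exon skipping events tested in all genes, 0.121% were called, and the receptors had 0 skipping reads and thus 0 events in the test. Of 5458 alternative donor and acceptor events tested, 0.147% were called, and 0 of the events tested lay in receptors, so that their donors and acceptors were not tested. All other gaps in reads listed for the 9 genes held 63 reads together, 23 in the mutant and 40 in WT. Most of these entries were gaps of a few bases or less inside 1 exon. They were shorter than the minimum of 40 bases set for a splice inside an exon, and are not read as splicing.

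The 250 bases before the start of each receptor gene in RefSeq (TAIR10.1) were searched on both strands for the core of the ABA-responsive element, ACGTG, which ABF and ABI5 factors bind, and for the drought-responsive core ACCGAC. The first motif was found before PYR1 and PYL7, 2 of 9 receptors, where 22.9% of 27443 windows of protein-coding genes hold it. The second was found before 0 of the 9, against 4.70% of all windows. The windows of PYL7 and PYL5 are shown because these are the receptors that rose, with each match on either strand in capitals.
PYL7, chr4:446728-446977, plus strand: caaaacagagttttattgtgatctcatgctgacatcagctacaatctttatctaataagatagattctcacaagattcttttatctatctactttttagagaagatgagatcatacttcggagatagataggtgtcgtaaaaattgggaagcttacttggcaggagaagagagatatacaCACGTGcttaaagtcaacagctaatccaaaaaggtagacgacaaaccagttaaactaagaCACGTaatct
PYL5, chr5:1608738-1608987, plus strand: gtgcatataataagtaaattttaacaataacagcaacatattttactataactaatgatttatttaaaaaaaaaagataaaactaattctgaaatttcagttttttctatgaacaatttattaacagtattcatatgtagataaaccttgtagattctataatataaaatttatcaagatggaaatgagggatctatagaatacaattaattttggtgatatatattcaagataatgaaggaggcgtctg
The PYL7 window has 3 matches, of which 2 overlap in the palindrome CACGTG, and the PYL5 window has 0. A match is a description of the letters and was not tested for binding.

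The genes with which the receptors act were described from the same edgeR fit (the plot of pathway genes). Of the 9 clade A PP2C phosphatases, which the receptors inhibit, 6 were tested, and 4 of these fell and 0 rose, with a median log2 fold change of -0.50. Over all genes tested, 19.4% fell and 18.0% rose. HAI1, a stress-induced phosphatase, had 0.545, 0.433 and 0.861 RPKM in the mutant, against 1.78, 1.37 and 1.53 RPKM in WT, and its log2 fold change was -1.33 (SE 0.24, edgeR adjusted p = 0.000635). ABI2 fell by 0.71, HAB1 by 0.57 and PP2CA by 0.43 on the log2 scale. ABI1 (log2 fold change -0.02) and HAB2 (0.12) did not pass. The 4 calls were kept in each fit that left out 1 library, and that for PP2CA was lost against a fold change of 1.2 (edgeR adjusted p = 0.0268).

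Of the 3 SnRK2 kinases, 2 rose, where 18.0% of all genes tested rose and 19.4% fell. The same shares stand beside the counts of transcription factors and turnover genes below. With so few genes, these counts are not read as a difference. SNRK2.2 had 33.7, 35.8 and 38.1 RPKM in the mutant, against 24.3, 26.7 and 26.0 RPKM in WT, with a log2 fold change of 0.47 (SE 0.05, edgeR adjusted p = 2.16e-05). SNRK2.3 had a log2 fold change of 0.68 (SE 0.08, edgeR adjusted p = 2.43e-05). OST1, the kinase of guard cells, had a log2 fold change of -0.19 and did not pass. Of the 7 transcription factors listed, 5 were tested. ABI5, known for arresting seedling growth under ABA, had a log2 fold change of 0.90 (SE 0.19, edgeR adjusted p = 0.00223), and ABF4 of 0.41. ABF3 fell by 0.46 and ABF2 by 0.30 on the log2 scale, and ABF1 (0.17) did not pass. The call for ABF2 was lost without mutant library 12 (log2 fold change -0.25, edgeR adjusted p = 0.0263) and against a fold change of 1.2 (adjusted p = 0.352). Against this fold change the call for ABF4 was lost too (edgeR adjusted p = 0.0588). The turnover list held 7 genes. Among them were subunits of the DET1 and COP10 complex that target PYL8 for degradation, and the sorting factors FREE1 and VPS23A. Only EAR1, which is listed there but is not itself a gene of receptor turnover, passed, with a log2 fold change of 0.35 (SE 0.05, edgeR adjusted p = 0.000181). The other 6 did not pass. The call for EAR1 was lost against a fold change of 1.2 (edgeR adjusted p = 0.0789). EAR1 is a negative regulator of ABA signalling that acts on PP2C phosphatases.

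**Figure D5:**
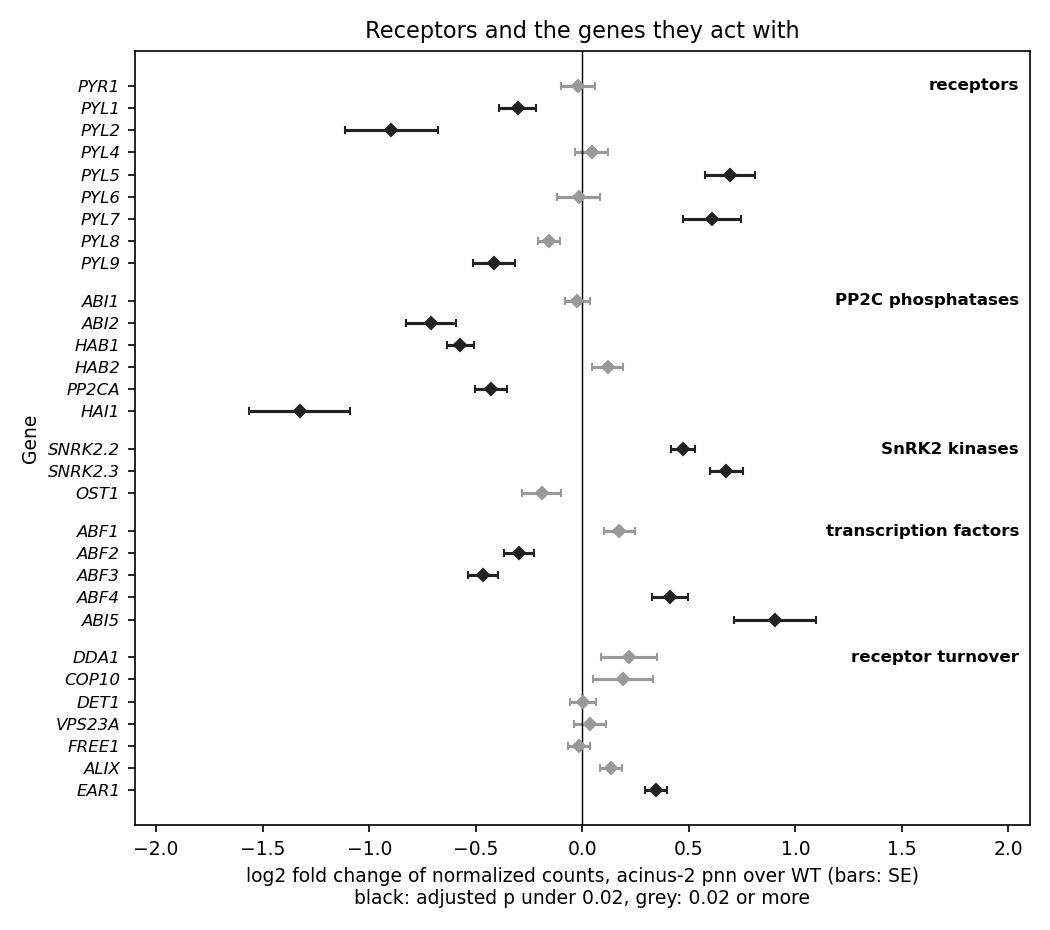
Log2 fold change of normalized counts with its SE, acinus-2 pnn over WT, for the 9 receptors and the tested genes of the PP2C, SnRK2, transcription factor and receptor turnover lists. Black marks an adjusted p under 0.02 and grey a higher one. The 4 phosphatases that passed lie left of 0 and the 2 SnRK2 kinases that passed lie right of it.

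Of 15 genes known to respond to ABA, 13 were tested, 2 rose and 6 fell, where 18.0% of all genes rose and 19.4% fell. The 6 were LEA4-5, KIN2, RD29A, RAB18, COR47 and AFP1, with log2 fold changes of -1.68, -1.17, -0.97, -0.70, -0.69 and -0.48. RD22 (0.66) and HB7 (0.51) rose. These counts depended on the setting. With 1 library left out, between 2 and 4 rose and between 4 and 7 fell, and without mutant library 6 it was 4 and 5. With DESeq2, 4 rose and 4 fell, and RD26 and P5CS1, which did not pass in edgeR (adjusted p = 0.0275 and 0.0216), passed there (adjusted p = 0.0107 and 0.0089). The 6 include late embryogenesis and cold-induced protective proteins, and LEA4-5 was the least stable, being lost under 6 of 12 alternatives and below the minimum level in limma.

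Across the 6 libraries, the genes outside the family whose log2 CPM was most like that of PYL2, the receptor with the largest change, were CKX6 (a cytokinin oxidase), RKL1 (a receptor-like kinase) and AT5G59770, with Pearson's r of 0.999, 0.998 and 0.996. In all, 484 genes exceeded an r of 0.95, and the 6 points include both genotypes, so that the difference between them enters the r.

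Several marker lists were lower in the mutant, where 19.4% of all genes tested fell and 18.0% rose. The summed level of 4 guard cell markers (MYB60, FAMA, SLAC1 and KAT1) lay between 11.3 and 13.2 RPKM in the mutant and between 19.01 and 20.2 RPKM in WT, and 4 of 4 fell. For 4 root markers it lay between 20.6 and 24.2 RPKM in the mutant and between 37.5 and 43.3 RPKM in WT. Of these 3 of 4 fell (CASP1, PIN2 and COBL9), and SCR (log2 fold change -0.21) did not pass. Of 4 mesophyll markers 3 fell (sums of 13167 to 13739 RPKM in the mutant and 15927 to 17318 RPKM in WT), and PSBO1 (log2 fold change -0.14) did not pass. Of 3 vascular markers 2 fell (43.1 to 48.0 RPKM in the mutant and 54.2 to 55.9 RPKM in WT), and APL (0.13) did not pass. Most of the vascular sum was SUC2, with means of 36.8 RPKM in the mutant and 46.5 RPKM in WT. The 3 flower markers summed to between 0.0521 and 0.142 RPKM in the mutant and between 0.239 and 0.348 RPKM in WT. Of the seed markers, the storage protein gene CRA1 had 319 reads in mutant library 12 and between 0 and 5 reads in the other libraries, so that this library stood apart, and OLEO1 and SESA1 had 11 and 8 reads there. Without it, PYL5 (log2 fold change 0.65), PYL7 (0.47) and PYL9 (-0.45) kept their calls, and PYL1 (-0.27) and PYL2 (-0.70) did not (edgeR adjusted p = 0.0534 and 0.0255). The part of the root, guard cell, mesophyll and vascular differences in the receptor values was not tested. The reads on AtACINUS had a log2 fold change of -1.53 and those on AtPININ of 0.84, both past the test, and reads before an insertion do not show a functional RNA. Reads on genes numbered between 20796343 and 25501031 in the mutant libraries and between 18890178 and 27622690 in the WT libraries.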

How the data were processed

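RNA-seq reads of 3 acinus-2 pnn and 3 WT libraries, grouped by the genotype in their labels, were mapped to TAIR10 by the authors and tabulated with RACKJ. Which alignment and gene model RACKJ used, and in which version, is not given in the sources used here. The authors gave expected counts for genes, exons and introns, in which a read that counts for several genes is split. The deposited fraction of such shared reads was used to find the unshared reads. The authors' RPKM divides by exon length and all mapped reads. The deposited junction tables hold the count of spliced reads. Between 1.05% and 1.12% of reads on genes were shared. Counts of libraries of the same genotype differed beyond counting error (chi-square divided by degrees of freedom, 3.63 to 10.4).

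Expected counts were rounded and tested in edgeR 4.0.16 (R 4.3.3; filterByExpr, TMM, quasi-likelihood), introns and skipping events with a term per library, with at least 10 reads. Introns were called at an adjusted p under 0.05, more than 2-fold, an intron level above 1 RPKM and an intron percentage above 5%. For donors and acceptors, Fisher's exact test was run for every mutant and WT library pair. DESeq2 1.42.0 and limma 3.58.1 (log2 of RPKM + 0.1) were alternatives. Intervals and floors (3 counts) cover counting error only where single counts are given. Levels across genes used RPKM. The tests of genes, introns, donors and acceptors were tested on simulated data with known changes. Of 100 genes changed 1.5-fold 76 were recovered, and of 100 changed 2-fold 97. Of 200 introns changed 4-fold 159 were recovered, and of 200 donor and acceptor events 191. The changed introns had a mean of at least 10 reads per library, more than any receptor intron, so that this does not cover the receptor introns. Splices inside exons of at least 40 bases were tested only after the values of PYL8 were seen. Coordinates and sequences came from RefSeq TAIR10.1, where all 5 receptor introns of the tables had the annotated length. Python 3.11.15, scipy 1.17.1 and matplotlib 3.10.9 served for tables and figures.

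All 9 members are named, with the other PYL genes, the lists of PP2C, SnRK2, transcription factor, turnover, ABA response and marker genes, and the 3 genes most like the receptor that changed most. The members and lists were chosen with earlier results of these data known. A library stands for all seedlings pooled in it, and p-values measure only the spread between libraries.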

Additional observations from a re-analysis of the deposited data

How the results depend on the processing

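PYL5 and PYL7 rose under all 13 alternatives run, with log2 fold changes between 0.60 and 0.83 for PYL5 and between 0.47 and 0.75 for PYL7. The largest adjusted p for PYL5 was 0.00369 (edgeR, without WT library 5). For PYL7 it was 0.0196 (edgeR, against a fold change of 1.2), just under the threshold of 0.02, and 0.0191 without mutant library 12 (edgeR). The count of receptors that passed was 5, 2 higher and 3 lower. It was 3, 2 higher and 1 lower, with DESeq2 and in the test against a fold change of 1.2. Leaving out 1 library gave between 3 and 5, with 2 higher and between 1 and 3 lower. It was 3 without acinus-2 pnn library 12 and without WT library 4. The test against a fold change of 1.2 also left 4087 of 7833 genes over the whole table (1841 higher and 2246 lower), and 19 of 31 genes in the other lists. PYL2 kept its call under 12 of 13 alternatives, PYL9 under 9 and PYL1 under 6. Receptors near 0 changed sign when 1 library was left out: PYR1 ranged between -0.086 and 0.035, PYL4 between -0.049 and 0.097 and PYL6 between -0.095 and 0.060, all without passing. PYR1 was at 0.016 without WT library 4, 0.013 without WT library 5 and 0.035 without mutant library 6, PYL4 at -0.049 without WT library 2, and PYL6 at 0.035, 0.00051 and 0.060 in the 3 fits named for PYR1. Among introns, PYL7 intron 1 ranged between -0.91 and 0.58 (-0.0083 without WT library 2 and -0.013 without WT library 5), PYL7 intron 2 between -0.16 and 0.77, and PYL8 intron 1 between -0.056 and 0.29. The cause was not tested in any case. With a minimum of 5 reads, PYL9 intron 2 could be tested and gave -1.50 on the log2 scale (adjusted p = 0.851). Over the whole table, 220 introns had more and 14 less retention, against 24 and 1 with DESeq2, 73 and 9 against all exons of the gene, and 87 to 157 and 3 to 15 with 1 library left out, while donor and acceptor calls numbered 8, against 95 on the summed libraries. The summed receptor level in the mutant stayed between 0.969 and 1.06 times that in WT. None of the 4 receptor introns tested, or of 5 with a minimum of 5 reads, was called under any alternative run. For skipping, donors and acceptors, 0 receptor events had enough reads to be tested in any setting, so that nothing is shown about their stability. The alternatives for the lists other than the receptors and for the splice inside PYL8 were chosen after seeing the data. No paired analysis was possible because the labels of the 2 genotypes share no replicate number. Depth limits the introns, with at most 11 reads per intron and library.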
